A study of Mus musculus with 4 samples.

Results

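The genes described here are the matrix proteases of the MMP and ADAMTS families, the ADAMTS-like proteins and the TIMP inhibitors. They were taken by symbol, as every gene whose name starts with Adamts, Adamtsl, Mmp or Timp followed by a digit in any of the 4 deposited count tables. This gave 51 of 27932 genes: 19 Adamts, 5 Adamtsl, 23 Mmp and 4 Timp genes, of which 42 were listed in all 4 tables. The tables hold single cells of whole kidneys of mouse embryos at E14.5, read by Drop-seq, a droplet method that captures the 3′ end of each transcript on a barcoded bead. There were 2 wildtype libraries and 2 mutant libraries labelled Hoxa9,10,11 and Hoxd9,10,11 -/-, and all 4 shared a mixed strain background, mostly CD-1 and 129. The labels do not say how many embryos went into a library or whether the replicates came from separate litters, so p-values measure the spread between these libraries only.

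Matrix metalloproteinases are zinc enzymes that cleave collagens, basement membrane and cell surface proteins. Some are secreted, and others, such as Mmp14, Mmp15 and Mmp16, are held in the cell membrane. ADAMTS enzymes are secreted relatives that trim procollagens or cleave proteoglycans such as versican, and the ADAMTS-like proteins share their ancillary domains but lack the protease. TIMPs bind and block these enzymes, and Timp3 stays attached to the matrix. In the embryonic kidney, matrix turnover goes with branching of the ureteric bud, the epithelial tube that becomes the collecting duct, and with the growth of stroma and vessels around it.

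The libraries held 2113 and 5542 wildtype and 1061 and 6428 mutant barcodes, with 9817486, 24834658, 3572346 and 21350698 counts. After filters on genes per cell, mitochondrial share and doublets, 11779 of 15144 barcodes were kept. The share of barcodes over the mitochondrial limit was 7.76% and 9.06% in wildtype and 19.6% and 29.1% in mutant libraries, and Malat1, a nuclear RNA, was at 2282 and 1679 against 4676 and 6548 counts per 1000000 counts (CPM), so these measures of RNA quality moved with genotype and their part in every genotype difference below was not tested. Kept cells were placed in gates by counts of marker genes, none of which is a protease or TIMP gene of this set, and 4182 stayed ungated. The stroma gate held 545, 1150, 403 and 2001 cells, in the order wildtype 1, wildtype 2, mutant 1 and mutant 2, which is the order of every set of 4 values below. The nephron progenitor gate held 258, 596, 0 and 9 cells and the podocyte gate 18, 12, 2 and 85, too few for a test. The 6 Hox transcripts named in the genotype were counted in all 4 libraries, and as the labels do not say where the lesions lie, these 3′ tags check nothing about the genotype. Only wildtype 2 and mutant 2 shared barcodes among kept cells, 2 in number.

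The 51 genes together gave 39828 counts in kept cells, very unevenly spread. Mmp14, Timp3 and Adamts1 had 6988, 6755 and 6426 counts, 10 genes passed 1000, and 20 had fewer than 50. These counts of 3′ tags were not divided by transcript length, and levels are compared here between cells and libraries rather than between genes. Among the least counted were the 10 Mmp genes of a group on chromosome 9, between positions 7272514 and 7699585 (GENCODE vM21, build mm10), which holds the collagenases Mmp1a, Mmp1b, Mmp8 and Mmp13 and the stromelysins Mmp3 and Mmp10. They had 3 to 24 counts each, 87 together, or 0.218% of the counts of the whole set. Whether reads of the related genes Mmp1a and Mmp1b were kept apart was not tested.

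The promoter windows of the chromosome 9 group differed in letters from those of the other members, which is why 5 windows are shown. RefSeq promoter windows of build GRCm38.p6, from 250 bases before to 50 after the gene start, were found for 36 of the 51 genes, as 39 windows. Capitals mark TGANTCA (the AP-1 motif), TATAAA (the TATA box) and GGGCGG (the GC box), each searched on both strands.
Mmp13, chr9:7272264-7272563, plus strand: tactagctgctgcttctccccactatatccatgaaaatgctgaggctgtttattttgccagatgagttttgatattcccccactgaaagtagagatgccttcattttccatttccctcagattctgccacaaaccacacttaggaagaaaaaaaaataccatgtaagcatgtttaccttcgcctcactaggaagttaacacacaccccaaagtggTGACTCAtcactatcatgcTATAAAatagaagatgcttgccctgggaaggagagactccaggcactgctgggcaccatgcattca
Mmp14, chr14:54431348-54431647, plus strand: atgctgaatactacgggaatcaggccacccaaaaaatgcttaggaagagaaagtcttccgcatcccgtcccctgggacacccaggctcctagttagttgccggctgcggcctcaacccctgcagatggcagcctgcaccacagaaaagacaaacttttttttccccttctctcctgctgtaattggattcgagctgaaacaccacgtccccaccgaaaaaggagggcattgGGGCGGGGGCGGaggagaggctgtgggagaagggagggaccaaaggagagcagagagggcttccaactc
Timp3, chr10:86300162-86300461, plus strand: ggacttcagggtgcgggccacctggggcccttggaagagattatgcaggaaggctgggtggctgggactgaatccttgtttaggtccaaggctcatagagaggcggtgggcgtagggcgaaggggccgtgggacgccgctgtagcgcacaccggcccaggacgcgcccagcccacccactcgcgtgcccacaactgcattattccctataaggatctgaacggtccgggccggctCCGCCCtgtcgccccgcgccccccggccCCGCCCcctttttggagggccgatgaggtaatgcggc
Adamts18, chr8:113848790-113849089, minus strand: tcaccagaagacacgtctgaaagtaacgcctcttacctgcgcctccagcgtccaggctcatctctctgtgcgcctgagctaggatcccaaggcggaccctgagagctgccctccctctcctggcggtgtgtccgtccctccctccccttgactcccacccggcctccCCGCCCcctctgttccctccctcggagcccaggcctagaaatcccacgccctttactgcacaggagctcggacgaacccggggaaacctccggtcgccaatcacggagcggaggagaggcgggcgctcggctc
Adamts2, chr11:50601835-50602134, plus strand: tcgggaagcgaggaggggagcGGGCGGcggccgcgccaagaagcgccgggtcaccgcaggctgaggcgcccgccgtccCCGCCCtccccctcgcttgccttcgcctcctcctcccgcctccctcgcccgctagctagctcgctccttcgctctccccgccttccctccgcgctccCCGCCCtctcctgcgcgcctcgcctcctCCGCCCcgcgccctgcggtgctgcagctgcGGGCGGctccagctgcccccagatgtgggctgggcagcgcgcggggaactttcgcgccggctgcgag
The AP-1 motif was in 8 of the 39 windows, all of them among the 12 windows of the chromosome 9 group, and in 0 of the 27 windows of the other genes. It was in 7.81% of all 32851 windows of that length. TATAAA was in 9 of the 12 windows of the group and in 13.6% of all windows, whereas GGGCGG was in 0 of the 12, in 22 of the 39 and in 35.7% of all. CG dinucleotides numbered 0 to 7 in the windows of the group, while the median of the 36 genes was 17 and that of all windows 7. In the Mmp13 window the AP-1 letters begin at position -35 and the TATA letters at position -16 from the RefSeq start. The Adamts2 window holds 5 GC boxes and 41 CG dinucleotides, and those of Mmp14, Timp3 and Adamts18 hold 2, 2 and 1 GC boxes. Outside the group, genes with few counts went both ways. Mmp24 and Adamtsl3, with 17 and 18 counts, hold 3 and 5 GC boxes, whereas Timp4 and Mmp21, with 21 and 10 counts, hold 0. Adamts1, with 6426 counts, holds both TATAAA and GC boxes. These are matches of letters and say nothing about which factor binds.

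Most of the members that could be tested were higher in stroma than in the other gated cells. Of the 29 members that passed the count filter when the stroma gate was compared with all other gated cells, 23 were higher in stroma and 2 lower, where 17.2% of 13890 genes were called higher and 17.8% lower (edgeR's quasi-likelihood test with library as block, Benjamini-Hochberg adjusted p under 0.05). The median log2 fold was 1.59 for the members and 0.01 for all genes. The summed level of the 23 Mmp genes was 481, 418, 576 and 634 CPM in stroma, against 185, 137, 94.6 and 209 CPM in the ureteric gate and 147, 135, 204 and 212 CPM in endothelium. All 4 stroma values lay above all 8 of these, but not above every gate: the podocyte gate held 691, 530 and 420 CPM (mutant 1 left out) and mural cells 422, 431, 249 and 415 CPM, which overlapped stroma.

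Mmp2, the gelatinase that cleaves denatured and basement membrane collagen, was at 109, 117, 117 and 189 CPM in stroma and at 21.0, 14.6, 11.4 and 24.1 CPM in the ureteric gate. Its log2 fold in stroma against other gated cells was 2.29 ± 0.11 (SE, edgeR adjusted p = 9.46e-08). Mmp14, the membrane enzyme that activates pro-Mmp2, was at 253, 180, 327 and 304 CPM in stroma, a log2 fold of 1.59 ± 0.09 (adjusted p = 4.48e-07). Mmp14 was also present in the ureteric gate, at 134, 83.7, 45.4 and 115 CPM, where its difference from other cells did not pass the test. In endothelium it was at 91.2, 58.8, 147 and 106 CPM. On average over libraries, both the enzyme and its activator were higher in stroma than in any other tested gate, though Mmp2 in wildtype 2 was higher in mural cells (169 CPM).

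Mmp16, another membrane-type enzyme, was at 47.6, 33.3, 48.1 and 67.8 CPM in stroma and at 4.93 ± 1.03 CPM (SD, n = 4) in endothelium. Mmp11, also called stromelysin-3, was at 39.8, 52.2, 59.9 and 40.0 CPM in stroma, with a log2 fold of 1.24. The third membrane-type gene named above, Mmp15, went the other way. It was at 12.4, 18.4, 18.9 and 29.3 CPM in endothelium and at 4.19, 3.23, 2.96 and 4.08 CPM in stroma, with no overlap of the 4 libraries. Its log2 fold in endothelium was 2.44 ± 0.32 (adjusted p = 9.56e-07). Its lower level in the stroma comparison (log2 -1.11) did not pass the test without mutant 2 (adjusted p = 0.307), without wildtype 2 (0.0856), without mutant 1 (0.0591) or under DESeq2 (0.144).

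**Figure D1:**
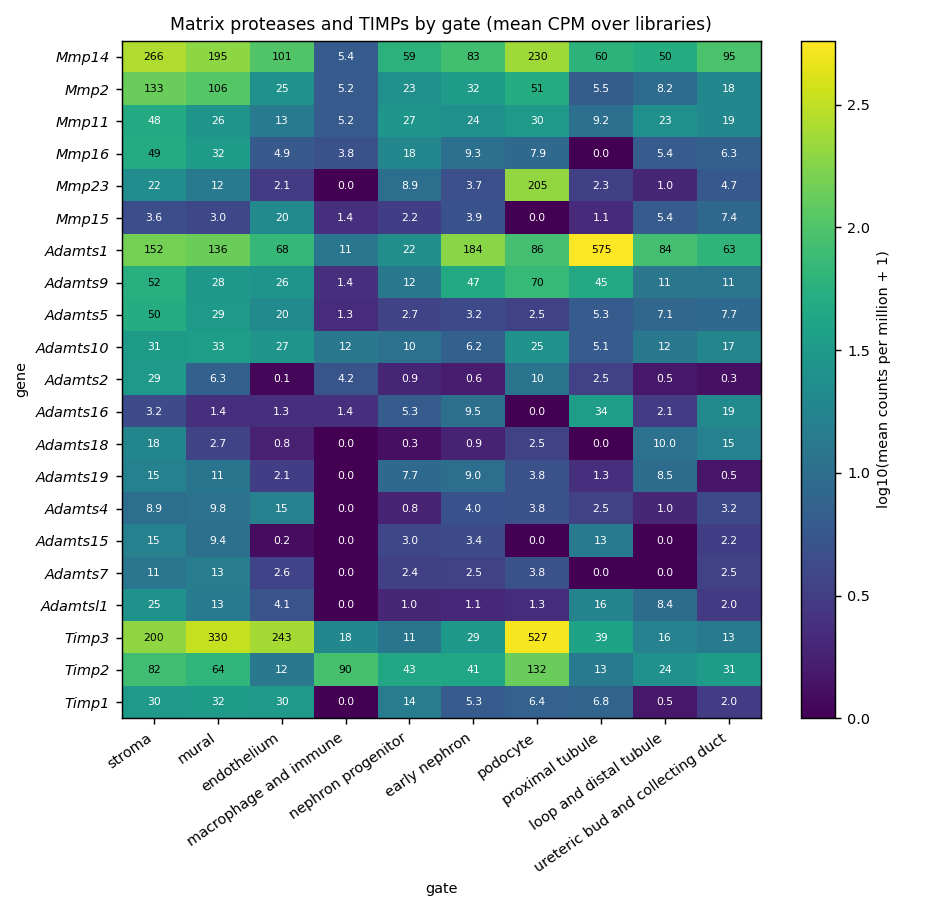
Mean level of the 21 genes with at least 5 CPM over all kept cells (rows) in 10 gates (columns), as CPM averaged over the libraries with at least 10 cells in the gate; colour is log10(CPM + 1). Most Mmp and Adamts genes are brightest in the stroma and mural columns, with Adamts1 brightest in proximal tubule and Mmp23 and Timp3 in podocytes.

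Among the ADAMTS genes, Adamts2, the procollagen N-proteinase that trims fibrillar collagen precursors, had the largest log2 fold in stroma among the tested members. It was at 20.4, 10.4, 31.8 and 54.8 CPM there, while the endothelial gate held 1 count in all 4 libraries and the ureteric gate 3. Its log2 fold in stroma was 4.14 ± 0.31 (edgeR adjusted p = 3.47e-06). Adamts5, an aggrecanase that also cleaves versican, was at 73.8, 29.6, 26.6 and 68.4 CPM in stroma, a log2 fold of 2.37 ± 0.18 (adjusted p = 2.87e-06), and its wildtype and mutant libraries overlapped. Adamts9, a versican-cleaving enzyme, had a smaller log2 fold of 1.14 ± 0.26. Of the ADAMTS-like genes, Adamtsl1 was at 35.6, 11.2, 21.5 and 31.6 CPM in stroma, with a log2 fold of 2.62 ± 0.22 (adjusted p = 5.91e-06), and Adamtsl4 and Adamtsl5 had log2 folds of 3.97 and 3.54. Adamtsl1 overlaps Sh3gl2 on the same strand, so some of its counts could belong to that gene.

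Adamts1, a versican-cleaving enzyme, and Adamts16 had their highest levels in epithelia. Adamts1 was at 558, 300 and 866 CPM in the proximal tubule gate of wildtype 1, wildtype 2 and mutant 2, and mutant 1 had 5 cells there. In the whole tubule gate, which joins proximal tubule with loop and distal tubule, it was at 378, 177, 121 and 430 CPM, a log2 fold of 1.43 ± 0.30 against other gated cells (edgeR adjusted p = 0.0107). A minimum of 5 marker counts per cell moved that p to 0.0546. Adamts16 was at 29.2, 17.3, 15.1 and 16.1 CPM in the ureteric gate and at 2.62, 1.99, 3.70 and 4.68 CPM in stroma, again without overlap. It was the single member higher in the ureteric gate (log2 2.12 ± 0.31, adjusted p = 2.47e-05), against 18 lower among 24 tested, where 13.6% of all genes were higher and 15.7% lower.

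Among the inhibitors, Timp3 was higher in mural cells and endothelium than in other gated cells, and Timp2 was higher in stroma. Timp3 was at 303, 246, 324 and 448 CPM in mural cells, the pericytes and smooth muscle of vessels, at 216, 192, 289 and 276 CPM in endothelium and at 209, 171, 195 and 224 CPM in stroma. The ureteric gate held 11.9, 14.1, 11.4 and 13.4 CPM, below every one of those values. The log2 fold of Timp3 was 1.31 ± 0.15 in mural cells (edgeR adjusted p = 3.82e-13), 1.04 ± 0.16 in endothelium and -3.38 ± 0.19 in the ureteric gate (adjusted p = 7.97e-11). Its endothelial call was lost with marker lists scaled to equal weight (edgeR adjusted p = 0.0565). In podocytes Timp3 was at 632, 218 and 732 CPM, from 32, 7 and 192 counts, with no test. Mutant 1 was left out for its 2 cells, and the wildtype 2 value lay below that of mural cells (246 CPM). The podocyte gate held Mmp23, a membrane enzyme, at 276, 187 and 153 CPM, from 14, 6 and 40 counts. The stroma level of Mmp23 was 25.1, 26.4, 14.8 and 20.5 CPM.

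Timp2, which takes part with Mmp14 in the activation of pro-Mmp2, was at 81.1, 49.2, 96.9 and 100 CPM in stroma and at 6.18, 11.0, 18.9 and 11.0 CPM in endothelium. Its log2 fold was 1.11 ± 0.13 in stroma and -2.50 ± 0.23 in endothelium (edgeR adjusted p = 6.78e-05 and 3.7e-09). Timp1 was at 26.7, 32.1, 30.3 and 31.4 CPM in stroma and 29.4, 37.7, 23.7 and 27.4 CPM in endothelium, with log2 folds of 1.16 and 0.74. The endothelial call of Timp1 was lost without wildtype 2 (adjusted p = 0.170). In the ureteric gate Timp1 was at 2.74, 2.73, 0 and 2.68 CPM. Podocytes held 178, 62.4 and 156 CPM of Timp2, with no test, and macrophages 29.6 and 35.3 CPM in wildtype and 184 and 110 CPM in mutants, from 41 counts in all. Timp2 overlaps Cep295nl on the same strand, and Timp1, Timp3 and Timp4 each overlap a synapsin gene on the other strand, so some of their counts could belong to those genes. In all, 4 of 24 members tested were higher in endothelium and 14 lower, beside 17.8% and 21.7% of all genes. The fourth higher one, Adamts4 (log2 1.32), lost its call without wildtype 1 (adjusted p = 0.140).

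**Figure D2:**
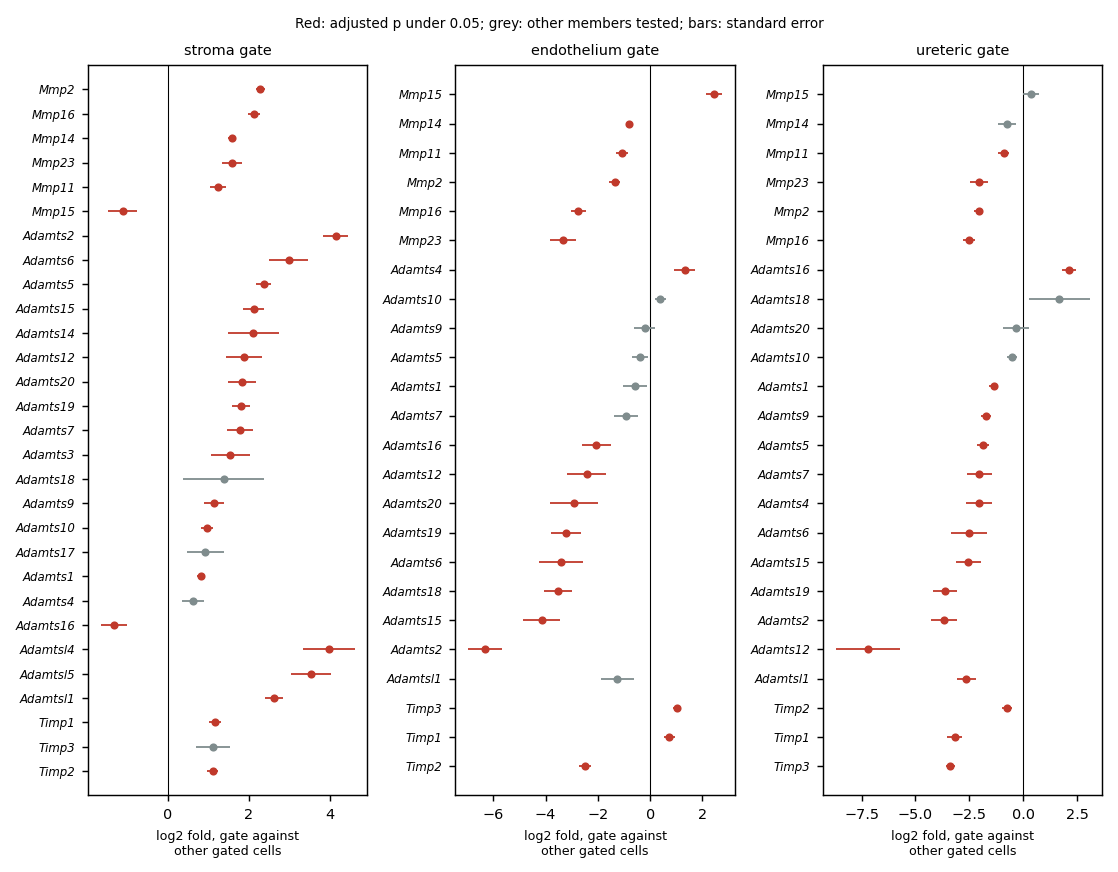
Log2 fold with standard error of every tested member in the stroma, endothelium and ureteric gates, each against all other gated cells, with library as block; red marks an adjusted p under 0.05. Stroma has 23 red points above 0, whereas most red points of the other gates lie below 0, apart from Mmp15, Adamts4, Timp3 and Timp1 in endothelium and Adamts16 in the ureteric gate.

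The smaller gates were tested with a minimum of 10 cells per library. In the macrophage and immune gate 2 of 20 members tested were higher and 15 lower (12.0% and 17.9% of all genes), and Mmp14 was among the lower ones (log2 -4.49). Timp1 had 0 counts among 540318, where the other gated cells had 21.4 CPM, at least 3.85-fold higher when 3 counts over the gate are taken as the floor. Mmp2 and Mmp14, abundant in stroma, had 4 counts each in this gate. Timp2 was at 29.6, 35.3, 184 and 110 CPM there, from 41 counts. The higher call of Mmp13, collagenase 3, came from 17 counts in wildtype 2 and 2 in mutant 2, and 16 of those 17 were in 1 cell. Mmp9, gelatinase B, rested on 2 and 4 counts in the wildtype libraries and 0 in the mutant ones. In the early nephron gate 2 of 20 members were higher and 11 lower (11.7% and 16.9%), in the tubule gate 2 of 19 were higher and 14 lower (15.6% and 17.3%), and in the mural gate Timp3 was higher and Adamts18 lower among 21 (2.98% and 5.16%). The mural call of Adamts18, on 6 counts, was lost in 8 alternatives. Among them were the runs without mutant 2 (adjusted p = 0.592), without wildtype 1 (0.0910) and without mutant 1 (0.0835). DESeq2 (0.359) and the edgeR run with no doublet step (0.0558) lost it too. Without mutant 2 the members called fell to 6 in the macrophage gate and 10 in the tubule gate.

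Within the stroma gate, cells were divided by a second set of markers into matrix fibroblasts (Lum, Ogn, Postn, Dcn), cortical stroma (Foxd1, Ntn1, Crabp1) and medullary stroma (Penk, Alx1, Cldn11). Of 21 members tested between the first and the second of these, 6 were higher in matrix fibroblasts and 0 lower, where 4.49% of 9169 genes were higher and 1.92% lower. Adamts2 was at 44.0, 28.9, 38.7 and 73.0 CPM in matrix fibroblasts and at 19.4, 3.80, 13.6 and 28.6 CPM in cortical stroma, higher in each of the 4 libraries (log2 1.56 ± 0.28, edgeR adjusted p = 0.000764). Timp3 was at 249, 213, 234 and 242 CPM against 155, 131, 88.4 and 126 CPM, also higher in all 4 (log2 0.84 ± 0.14, adjusted p = 0.000301). Adamts15 had the largest log2 fold of the 6, 2.26 ± 0.43. The calls of Mmp23 (1.44), Timp2 (0.89) and Adamts1 (0.52) were lost without wildtype 2 (adjusted p = 0.161, 0.0791 and 0.444) and without wildtype 1 (0.0630, 0.0817 and 0.238).

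Between genotypes, 1 member passed the test in the sum of all kept cells. Of 35 tested members Adamts2 was higher in mutants, beside 1.32% of 15777 genes called (edgeR, no block). It was at 5.07 and 3.0 CPM in wildtype and 16.5 and 22.4 CPM in mutant libraries, a log2 fold of 2.19 ± 0.39 (adjusted p = 0.00155), from 46, 68, 50 and 384 counts. No library overlapped, and the call held in all 10 alternatives, with log2 folds from 1.91 to 2.45. In a sum over cells, more cells of a type and more RNA per cell cannot be told apart.

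The stroma that carries Adamts2 differed in makeup between genotypes. Matrix fibroblasts, in which Adamts2 was highest, were 29.2% and 18.8% of the stroma gate in wildtype and 55.1% and 52.7% in mutant libraries. Within the stroma gate the Adamts2 difference was 1.54 ± 0.40 (edgeR adjusted p = 0.0915). Over 14 alternatives its log2 fold ran from 1.15 to 1.98, and 3 of them passed the test. Among matrix fibroblasts alone the wildtype and mutant values overlapped (log2 0.70 ± 0.42, adjusted p = 0.999). The part of makeup in the difference over all cells was not tested further.

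The other members leaned the same way without passing the test. Of the 35, 33 had a log2 fold above 0, with a median of 0.72 beside 0.01 for all genes. In 19 of them both mutant libraries lay above both wildtype libraries, where 24.9% of all genes did so, and in 0 both lay below (13.4% of all genes). Timp3 was at 106, 71.3, 177 and 212 CPM (log2 1.02 ± 0.33, edgeR adjusted p = 0.156), Mmp2 at 41.3, 43.0, 62.9 and 98.7 CPM (0.80 ± 0.34, adjusted p = 0.391) and Mmp14 at 129, 88.0, 201 and 187 CPM (0.73 ± 0.33, adjusted p = 0.444). An exact permutation test of 2 against 2 libraries cannot give a p under 0.333. Members were chosen by name, and most of those tested between stroma and other gated cells were higher in stroma. The stroma gate held 29.4% and 24.0% of kept wildtype cells and 49.8% and 46.2% of kept mutant cells. The part of that shift in these counts was not tested. In the stroma gate 12 of 29 members had both mutants higher (17.6% of all genes) and 2 had both lower (16.7%), Mmp23 and Adamtsl4, and the median was 0.42 beside 0.01 for all genes.

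**Figure D3:**
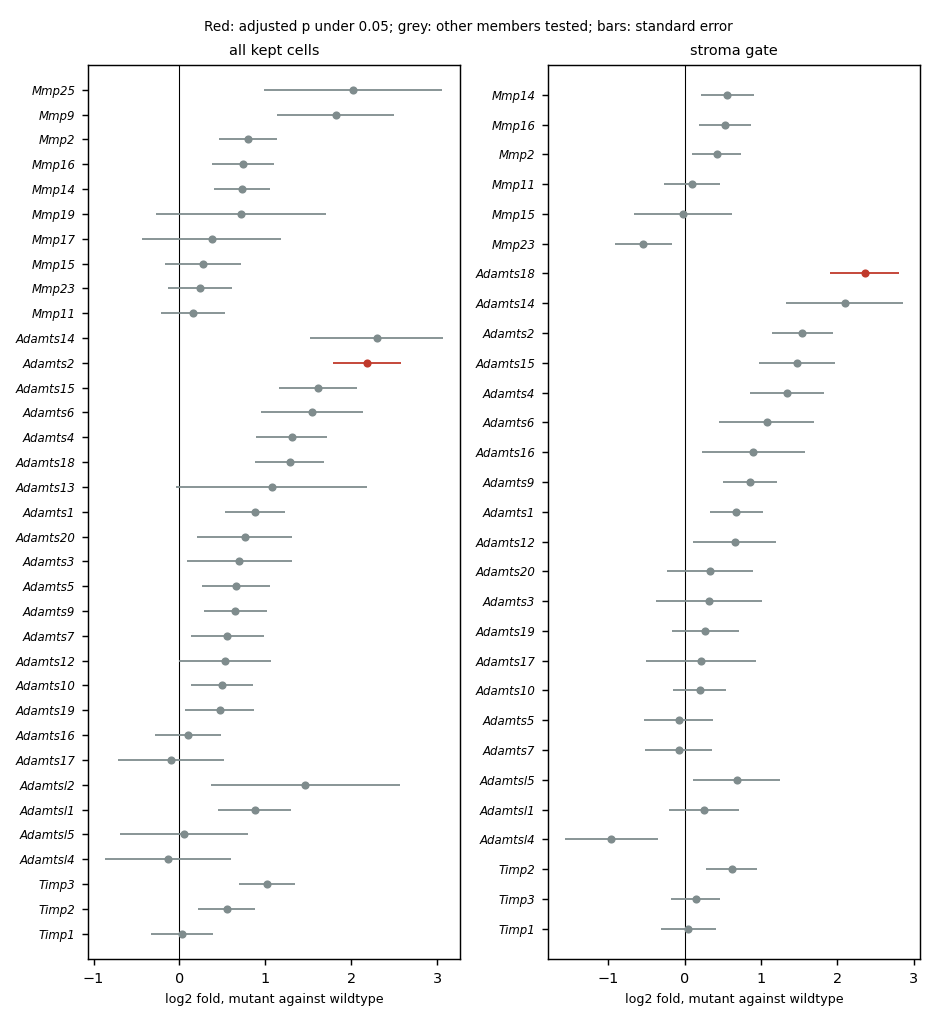
Log2 fold, mutant against wildtype, with standard error, for the 35 members tested over all kept cells and the 29 tested in the stroma gate; red marks an adjusted p under 0.05. Most points lie right of 0 over all cells, and Adamts2 (all cells) and Adamts18 (stroma gate) are the red ones.

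Adamts18, a secreted ADAMTS enzyme, was counted mainly in stroma and in the ureteric bud, and the order of the genotypes differed between them. In stroma it was higher in mutants: 8.37 and 3.73 CPM in wildtype and 25.9 and 32.3 CPM in mutant libraries, from 16, 15, 35 and 214 counts. The log2 fold was 2.36 ± 0.45 (edgeR adjusted p = 0.0179), the only call among 29 members, beside 0.392% of 11738 genes. These counts were spread over 12, 11, 28 and 157 cells, with at most 5 in a cell. The call was lost without wildtype 2 (adjusted p = 0.0546), with at least 1000 genes per cell (0.0730) and with marker lists scaled to equal weight (0.133).

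Within stroma, Adamts18 was higher in mutants in the cortical subgate. It had 0 and 4 counts in 119 and 233 wildtype cells and 6 and 46 in 54 and 215 mutant cells, or 0, 3.80, 40.8 and 57.2 CPM. Its log2 fold was 4.24 ± 0.74 (edgeR adjusted p = 0.00969), the only call among 15 members tested, beside 0.506% of all genes. The call was lost with the replicate block (edgeR adjusted p = 0.235), and without mutant 2 its counts were too few for the test. Without wildtype 2 the fitted log2 fold was 7.68, which rests on the 0 counts of wildtype 1 and is no measure of fold. In matrix fibroblasts it was at 18.8, 2.89, 19.4 and 17.9 CPM, where wildtype 1 lay among the mutants and wildtype 2 alone was low. The difference between the genotype effects of these subgates was 3.21 ± 0.91 (adjusted p = 0.0382, 1 of 21 members beside 1.22% of all genes), a call that was lost in 11 of 13 alternatives, among them without wildtype 1 (1.0), without mutant 2 (0.460) and under DESeq2. The summed ureteric marker list in the stroma gate was at 33.5, 49.5, 37.7 and 38.5 CPM, with no split by genotype. The gate rule itself limits the marker counts of other lists in a stroma cell, so these sums do not measure stray ureteric RNA. The part of such RNA in the Adamts18 counts was not tested.

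In the ureteric bud and collecting duct gate the order was turned around. Adamts18 had 45 and 46 counts in 131 and 246 wildtype cells and 0 and 0 in 41 and 52 mutant cells, or 41.1, 20.9, 0 and 0 CPM. With 3 counts over the mutant gate as the floor, wildtype was at least 5.86-fold higher. In wildtype 1, 29 of the 45 counts were in 1 cell, and without it the level was 19.3 CPM and the bound 4.35-fold. The difference did not pass the test (edgeR adjusted p = 0.0810, 0 of 9 members called beside 0.0832% of all genes, 2 at an unadjusted p under 0.05). It passed without wildtype 2 (0.0254), without mutant 1 (0.0429), with the replicate block (0.00298), with no mitochondrial limit (0.0485) and without a filter on low counts (0.000925). DESeq2 called 0 members but gave Adamts18 no adjusted p (unadjusted p = 0.000579). The difference of the genotype effects between stroma and the ureteric gate passed the test (adjusted p = 5.18e-12, 1 of 24 members beside 0.914% of all genes) and did so in all 12 alternatives, where the adjusted p reached at most 0.00262. Its fitted log2 size depends on the zero counts and is no measure of fold.

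The wildtype counts lay mostly in cells with markers of the ureteric tip, the branching end of the bud that carries Ret and Wnt11. Cells with a Ret or Wnt11 count were 60 of 131 and 123 of 246 in wildtype and held 43 of the 45 and 40 of the 46 Adamts18 counts. Their Adamts18 level was 61.7 and 26.0 CPM, against 5.02 and 9.06 CPM in the other cells of the gate. The 1 wildtype 1 cell with 29 counts held 268158 of the 697188 counts of these cells, and without it the level was 32.6 CPM from 14 counts. In the mutants such cells were 3 of 41 and 20 of 52, and the 20 of mutant 2 held 0 Adamts18 counts among 171418, which allows up to 17.5 CPM, below the wildtype levels of 32.6 and 26.0 CPM; the difference per such cell was not tested. Over the whole gate Etv4 (119, 124, 18.9 and 13.4 CPM) and Etv5 (181, 95.5, 3.79 and 13.4 CPM) were also low in the mutants. Fewer tip cells and less Adamts18 per tip cell cannot be told apart in these mutants, and mutant 1 had only 3 such cells. Both Ret and Wnt11 are markers of the gate, which leaves the choice of cells tied to them.

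**Figure D4:**
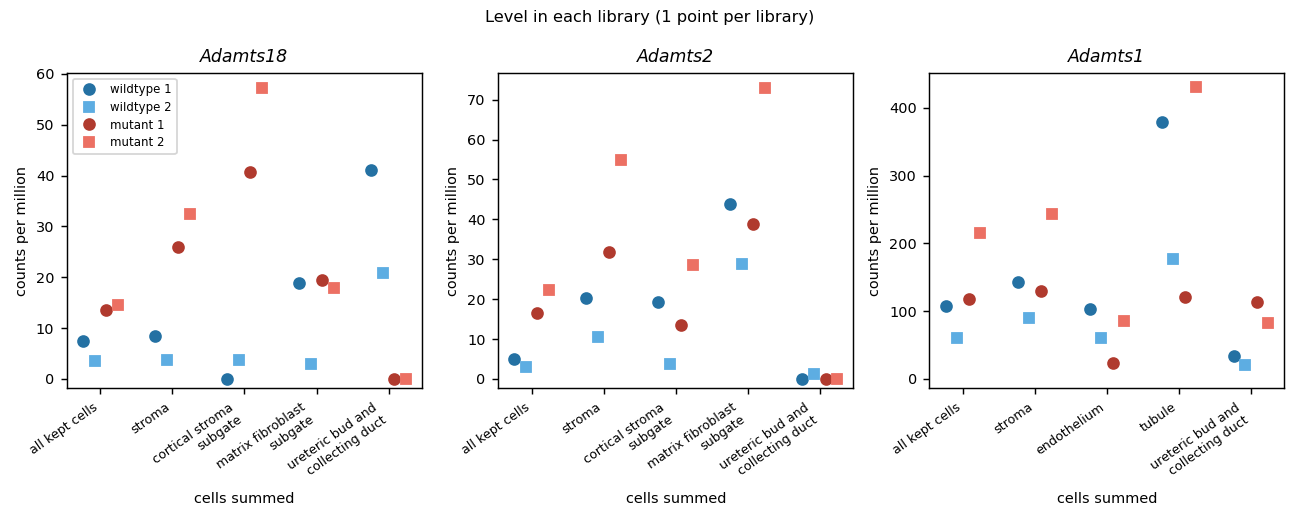
CPM of Adamts18, Adamts2 and Adamts1 in each library (blue, wildtype 1 and 2; red, mutant 1 and 2) for the sums of cells named on the horizontal axis. Adamts18 is higher in both mutants in stroma and cortical stroma and at 0 in both mutants in the ureteric gate; Adamts2 is higher in both mutants over all cells, and Adamts1 overlaps between genotypes in stroma and endothelium.

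Adamts1 differed between gates in another way. It was at 143, 89.3, 130 and 244 CPM in stroma and at 104, 60.6, 23.7 and 85.5 CPM in endothelium, with genotypes overlapping in both. The genotype effect was larger in stroma than in endothelium by 1.13 ± 0.25 on the log2 scale (edgeR adjusted p = 0.00173, 1 of 23 members, 1.11% of all genes). The endothelial value of mutant 1 rested on 5 counts in 50 cells. The call was lost without wildtype 1 (0.563), without wildtype 2 (0.118) or without mutant 2 (0.0865), and under DESeq2 (0.779). In the ureteric gate Adamts1 was at 33.8, 20.9, 114 and 83.2 CPM, with both mutants above both wildtypes (log2 1.84 ± 0.45, adjusted p = 0.127). Over 13 alternatives the log2 fold of that difference ran from 1.49 to 2.66, and 2 of them passed the test. The immediate-early genes Fos, Jun, Egr1, Atf3, Ier2 and Dusp1, which respond to cell handling, summed to 669, 390, 322 and 566 CPM in that gate, with wildtype 1 highest.

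In the other gates no member passed a genotype test. These were 0 of 11 in endothelium (0.073% of all genes called, and 0 at an unadjusted p under 0.05 among the members), 0 of 1 in the macrophage gate (0.0758%, 1 unadjusted), 0 of 3 in the tubule gate (0.0%, 0 unadjusted) and 0 of 19 in matrix fibroblasts (0.433%, 1 at an unadjusted p under 0.05). DESeq2 also called 0 members in each of these gates. On data simulated from these libraries, the test over all kept cells recovered 59% of genes changed by a log2 of 2 and 5% of those changed by 1, so smaller differences would mostly not be called. In the stroma gate it recovered 80% and 17%, with 7 false calls. Only genes above a count limit were changed, and every gene was drawn with the same spread between libraries. These rates therefore need not hold for single members, many of which had few counts. No genotype test of the other gates named in this paragraph was simulated. How large a difference could be missed in those gates was therefore not measured.

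Of the other genes of matrix turnover, 3 lists of 50 genes in all were followed over all kept cells. The lists were chosen with earlier results of these data known, so their shares beside all genes are no independent support. Among the other matrix proteases 3 of 20 tested rose in mutants, where 1.32% of all genes were called in either direction: Fap, a membrane serine protease of activated fibroblasts, Ctsk, the collagen-cleaving cathepsin K, and Adam12. The median log2 fold was 0.53, beside 0.01 for all genes. Fap was at 6.84, 1.98, 28.3 and 31.0 CPM, with no overlap (log2 2.73 ± 0.46), and Ctsk and Adam12 had log2 folds of 2.92 and 1.79. Among the inhibitors, activators and receptors 0 of 12 rose and 1 fell. This was Spock2, a matrix proteoglycan, at 86.9, 90.8, 10.2 and 11.4 CPM (log2 -3.17 ± 0.37). Among the matrix substrates 0 of 11 rose and Col2a1, the cartilage collagen, fell, from 13.9 and 18.7 CPM to 3.29 and 6.81 CPM (log2 -1.76 ± 0.41). In the stroma gate Spock2 was the single gene called in these lists (1 of 9 inhibitors, activators and receptors tested, beside 0.392% of all genes), at 20.4, 26.1, 6.66 and 3.48 CPM (log2 -2.42 ± 0.49). Fap, Ctsk and Adam12 were higher in stroma than in other gated cells (log2 3.60, 2.67 and 1.38), and Spock2 and Col2a1 were lower (-2.05 and -2.20). Stroma was 29.4%, 24.0%, 49.8% and 46.2% of kept cells, and the nephron progenitor gate held 258, 596, 0 and 9 cells. The part of these shifts in cell types in the differences above was not tested. Nor was the part of stray RNA from other cells in the Spock2 counts of the stroma gate.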

How the data were processed

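The deposited tables hold whole-number counts per gene and cell barcode, made by the authors with Bowtie2 2.2.7 and build mm10 named in the submitters' processing notes; the annotation, the use of strand and the collapse of duplicate reads are not given in the sources used here. Kept cells had at least 500 genes and at most 10% mitochondrial counts, after the top 5% of Scrublet scores in each library were removed. A gate needed at least 3 counts from at least 2 of its marker genes and 60% of the counts of all 13 marker lists, and a subgate 2 counts. Counts of each gate were summed per library and tested on all genes with edgeR 4.0.16 (R 4.3.3; quasi-likelihood, TMM, filterByExpr), p-values adjusted after Benjamini and Hochberg (threshold 0.05), in gates with at least 25 cells per library. The script was tested on simulated data. DESeq2 1.42.0, other filters, gates and left-out libraries were alternatives. CPM is counts per 1000000 counts of the same cells, SE is the log2 fold divided by the square root of F, and bounds against 0 use 3 counts and cover counting error only.

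Genes named with values per library were those past a genotype test, or with a mean of at least 20 CPM over kept cells or 100 CPM in a tested gate, and others where a lineage difference passed the test; Mmp15, Mmp23, Adamts16, Adamtsl1, Timp1 and the genes named on low counts were picked after their values were seen. The members and lists were chosen with earlier results of these data known. Chosen after seeing the data were the minimum of 10 cells for the mural, early nephron, tubule and macrophage gates, the genotype tests of the ureteric gate and the subgates, the test between subgates, the tests of differences between genotype effects, the marker lists scaled to equal weight, the split by Ret or Wnt11 and the immediate-early genes. All 51 genes were positioned in GENCODE vM21.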

Additional observations from a re-analysis of the deposited data

Results flagged for a closer look

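The genotype effect on Adamts18 differed between stroma and the ureteric bud and collecting duct gate, with a fitted difference of 11.36 on the log2 scale. Stroma held 16 and 15 wildtype and 35 and 214 mutant counts, whereas the ureteric gate held 45 and 46 wildtype and 0 and 0 mutant counts. The size of the fitted value comes from the zero counts and is no bound. The effect on Adamts18 also differed between the cortical and matrix fibroblast subgates, by 3.21, and this test missed the threshold in 11 of its 13 alternatives. The effect on Adamts1 was larger in stroma than in endothelium by 1.13, and this test missed the threshold in 5 of its 13 alternatives. These 3 differences were those past the test among the 3 pairs of gates compared, and their causes were not tested.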

How the results depend on the processing

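No value of a named gene that passed a test changed direction in any alternative run. Of 2619 alternative values of single genes, 2462 stayed on their side of the threshold, 137 lost a call and 20 gained one. Counts of members past the test were within 1.5 times of the first value elsewhere and moved as follows. For genotype over all kept cells, 1 became 1 to 3 with 1 library left out. In the stroma gate 1 became 2 with no filter on low counts, 0 with at least 1000 genes per cell, 0 with scaled marker lists and 0 to 4 with 1 library left out. In the ureteric gate 0 became 1 with no filter, with the replicate block, with no mitochondrial limit and with scaled lists, and 0 to 1 with 1 library left out. In cortical stroma 1 became 0 under DESeq2, where the adjusted p of Adamts18 was not given (unadjusted p = 0.000125), 0 with the replicate block, 0 with scaled lists, and 0 to 1 with 1 library left out. Between lineages, the mural count of 2 became 1 under DESeq2, 1 with at least 1000 genes and 1 to 2 with 1 library left out, the tubule count of 16 became 10 to 17, the macrophage count of 17 became 6 to 16, and the count of 6 between subgates became 3 with scaled lists and 3 to 7. The difference between stroma and endothelium went from 1 to 0 under DESeq2 and with scaled lists, and 0 to 1 with 1 library left out. That between stroma and the ureteric gate went from 1 to 2 with no filter, with no doublet step and with a floor of 5 marker counts, to 3 with no mitochondrial limit and with scaled lists, and 1 to 3. That between the subgates went from 1 to 0 under DESeq2, with no filter, with at least 1000 genes, with no doublet step, with no mitochondrial limit, with a floor of 5, with a purity of 80%, without collagen markers and with scaled lists, and 0 to 1. The cause of these shifts was not tested. Deviations of same-numbered libraries from their genotype means correlated at 0.08, so the numbers were not taken as pairs. With the replicate block Adamts18 in cortical stroma had an adjusted p of 0.235 and in the ureteric gate 0.00298. Gates with too few cells were not run: nephron progenitor and podocyte in every setting, a purity of 80% for the tubule, ureteric and early nephron gates and the difference between stroma and the ureteric gate, a floor of 5 for the mural and early nephron gates, and scaled lists for the mural gate. With 1 library left out, the lone library of a genotype is assumed to vary like the other pair. There were 2 libraries per genotype, and mutant 1 held 3036779 kept counts, which limits the precision.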
